A study of Mus musculus with 138 samples.

Results

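This experiment compares single mouse embryos at the 2-cell stage that came from eggs without maternal Smarca5 with wild-type embryos, within the first of 2 embryo collections. Libraries were chosen by their labels: titles with replicate number 1 and an embryo genotype of SMARCA5 +/- (here "maternal deletion") or SMARCA5 +/+ (here "wild type"), and at least 100000 counts. Of the 138 libraries of the series, 22 carry these labels and 21 were kept, 13 maternal deletion and 8 wild type. The left-out maternal deletion library, well D08, held 94536 counts. Each library is the polyadenylated RNA of 1 plate well, prepared by the RNA arm of scNMT-seq, a method that profiles DNA methylation and open chromatin alongside the transcriptome.

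Maternal deletion embryos had mothers lacking Smarca5 in the egg and wild-type fathers, so they are heterozygous and carry a paternal copy of the gene. The titles of both groups name matKO females and do not tell the mothers apart. The Cre driver, the mouse strain, the age of the females and the hour of collection are not given in the sources used here. Loss of the maternal product and the heterozygous genotype of the embryo cannot be told apart in this design. The labels describe a collection as a pool of embryos from several matings and a technical replicate, so the p-values below measure the spread between these embryos.

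SMARCA5, also called SNF2H, is the ATPase of ISWI chromatin remodelling complexes, which slide and space nucleosomes. A mouse egg carries stored maternal RNA and protein, and most of that RNA is degraded after fertilisation. At the 2-cell stage the embryo switches on its own genome in a major wave of transcription, which includes a short burst of 2-cell genes such as the Zscan4 family and then genes for ribosomes, RNA processing and metabolism.

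Total counts ran from 121794 to 1566176 (median 429979) in wild type and from 264566 to 2065152 (median 702651) in maternal deletion. After every library was thinned to 121794 counts, 7315 to 9110 genes were detected in wild type and 6795 to 9214 in maternal deletion. Mitochondrially encoded genes took 4.63% to 17.8% and 2.58% to 18.4% of counts. All wild-type libraries stood in plate column 7 and the maternal deletion libraries in columns 8 (5 libraries) and 9 (8 libraries), so plate column and group cannot be told apart. On a scaling plot of the 500 genes that differ most between library pairs, the first axis, with 39% of the variance, put the wild-type libraries between -2.63 and -1.13 and 12 of the maternal deletion libraries between 0.73 and 1.90. The remaining maternal deletion library, well H09, stood between the groups at -0.37, and the wild-type library nearest to it was C07. Both were kept, and the main counts are also given without them.

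Smarca5 (chr8:80698507-80739497, minus strand, GRCm38) was the targeted gene. Its level in wild type was 677 CPM (read counts relative to library size, scaled here for library composition with TMM) in A07, 678 in B07, 407 in E07, 377 in H07, 314 in G07, 308 in F07, 191 in C07 and 185 in D07. In maternal deletion it ran from 13.8 to 302 CPM with a median of 86.3. Wells H09 (302), A08 (174) and G09 (119) were the highest of the maternal deletion group. Apart from H09, every maternal deletion library lay below every wild-type library, so the groups overlapped through H09 alone. The log2 change was -2.16 (standard error (SE) 0.45, edgeR adjusted p = 0.000384), and -2.80 without H09 and C07. No maternal deletion library was at or under 3 Smarca5 counts. Exons of the predicted gene Gm45872 overlap Smarca5 on the same strand, and the deleted part of the gene is not given in the sources used here. Smarca1, the other ISWI ATPase gene, had 1 read count in 1 library and 0 in the other 20, which was noticed after its values were seen.

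Gdf9 (chr11:53431023-53437904, plus strand) encodes an oocyte-secreted growth factor of the TGF-beta family and is a classic maternal transcript. Its level was 33.3 to 257 CPM in wild type (median 144) and 1008.5 to 7954.9 CPM in maternal deletion (median 4067.1). The groups did not overlap, and well H09 was again the maternal deletion library closest to wild type. The log2 change was 5.06 (SE 0.45, edgeR adjusted p = 6.67e-09). Gdf9 and Smarca5 were chosen as markers with these results known, so their values describe the libraries.

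**Figure D1:**
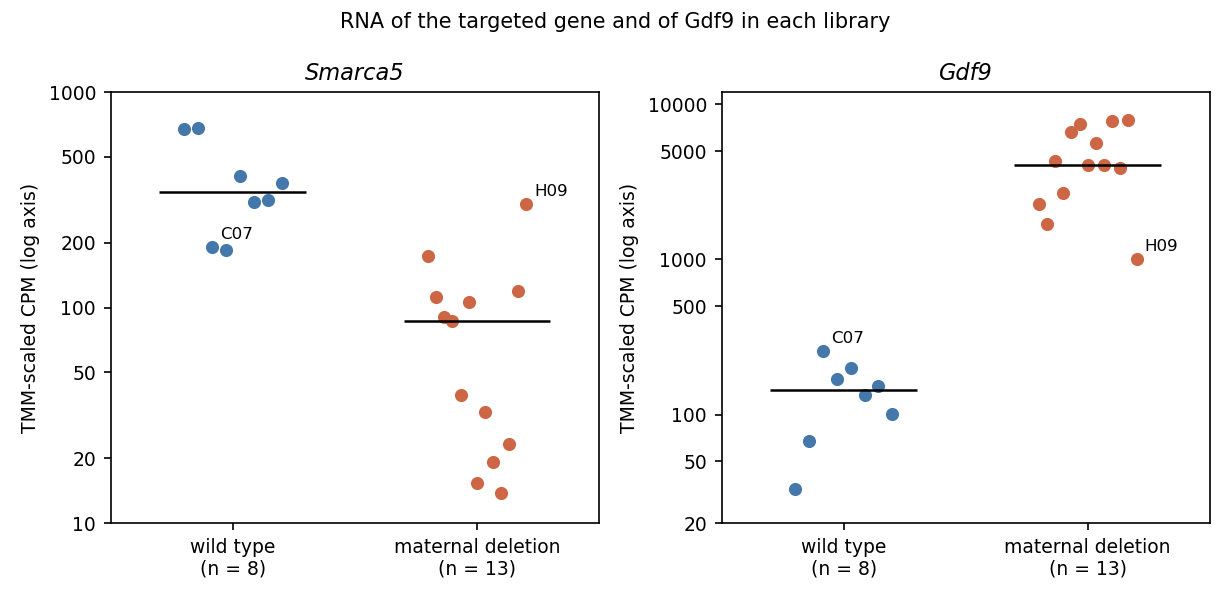
TMM-scaled CPM of Smarca5 (left) and Gdf9 (right) on log axes, with 1 point per library and a line at each group's median, for 8 wild-type and 13 maternal deletion libraries. Smarca5 overlaps between the groups only through well H09 at 302 CPM, and Gdf9 does not overlap, with 257 CPM as the highest wild-type and 1008.5 CPM as the lowest maternal deletion value.

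Of 25900 genes, 6389 passed the filter on low counts and were tested. At a Benjamini-Hochberg adjusted p under 0.05, 2801 of them (43.8%) changed, 1508 higher (23.6%) and 1293 lower (20.2%) in maternal deletion. Changes of at least 2-fold made up 1359 of the rises (21.3% of tested genes) and 1235 of the falls (19.3%). In 177 tested genes (2.77%) every maternal deletion library lay above every wild-type library, and in 276 (4.32%) every one lay below. A gene below was counted as "called" where it passed this adjusted p, and its direction is that of maternal deletion against wild type. Over the tested genes the median log2 change was 0.21 under TMM, 0.06 under the size factors of DESeq2 and 0.07 when only total counts were used. Rises were 53.8% of the calls with TMM but 46.8% with size factors and 47.1% with total counts. Still with TMM, 1175 genes rose and 1389 fell without wild-type library H07. Which direction holds more genes thus depends on the scaling and on the libraries kept. Without H09 and C07, 3029 genes changed, 1418 higher and 1611 lower. With only the 5 maternal deletion libraries of plate column 8 there were 2845 calls, and with only the 8 of column 9 there were 1944, both against the same 8 wild-type libraries.

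**Figure D2:**
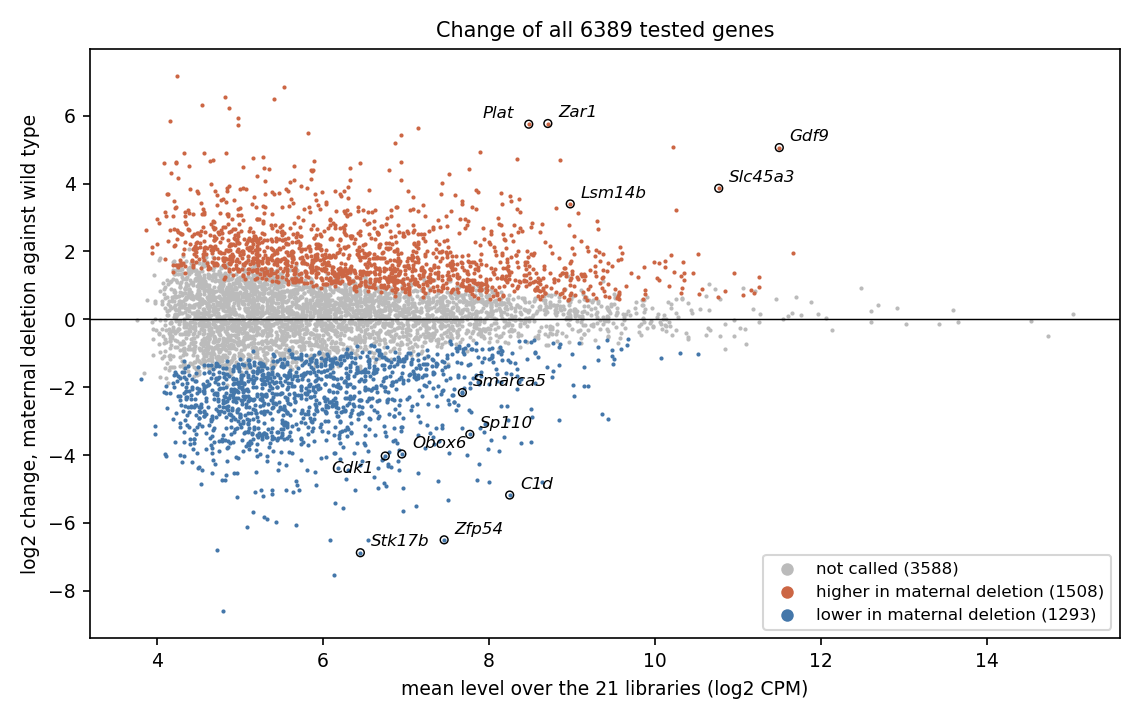
Log2 change of maternal deletion against wild type (vertical axis) against the mean level over 21 libraries in log2 CPM (horizontal axis), 1 point per tested gene (n = 6389), coloured by the edgeR call at an adjusted p under 0.05. The 1508 rises and 1293 falls lie over most of the range of levels, with Zar1, Plat and Gdf9 among the large rises of abundant transcripts and Stk17b and Zfp54 among the large falls.

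Of 89 genes that rose with a mean of at least 200 CPM in maternal deletion and no overlap between the groups, the 12 largest rises had log2 changes from 3.72 to 5.77 and included Zar1, Plat, Smoc2, Gdf9, Serpine2, Coro2b, Lamb1, Lamtor3, Slc45a3, Tbc1d22b and Nceh1. Zar1 (chr5:72577114-72581084) encodes an RNA-binding maternal-effect protein that holds stored mRNA in the egg. It ran from 0 to 59.7 CPM in wild type (median 4.32) and from 122 to 2987.9 CPM in maternal deletion (median 416). Its change was 5.77 (SE 0.79, edgeR adjusted p = 3.32e-06). These rises were picked for a high maternal deletion level, no overlap and a large change. The gap between their groups follows from this choice.

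Plat (chr8:22757744-22782847), tissue plasminogen activator, is another well-known stored mRNA of the mouse oocyte. It measured 0.761 to 26.9 CPM in wild type (median 9.10) and 84.7 to 1476.3 CPM in maternal deletion (median 414). Serpine2 (chr1:79794197-79858696), a secreted inhibitor of serine proteases of this kind, moved in the same direction, from 0 to 32.8 CPM (median 12.5) to 117 to 628 CPM (median 356). The protease and the inhibitor changed by 5.75 (SE 0.60, edgeR adjusted p = 5.60e-08) and 4.93 (SE 0.55, adjusted p = 1.33e-07) on the log2 scale. In both, well H09 was the lowest of the maternal deletion libraries.

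Slc45a3 (chr1:131962967-131982963), a solute carrier, was the most abundant of these genes after Gdf9. Its wild-type values were 86.1 to 490 CPM (median 147) and its maternal deletion values 821 to 4848.5 CPM (median 3072.5), a change of 3.86 (SE 0.40, edgeR adjusted p = 5.60e-08). The extracellular matrix genes Lamb1, a laminin chain, and Smoc2 rose by 4.68 and 5.63. Others were Coro2b, an actin-binding coronin (4.73), Lamtor3, a scaffold of the lysosomal Ragulator complex (4.27), Tbc1d22b, of the family of Rab GTPase regulators (3.76), and Nceh1, a cholesterol ester hydrolase (3.72). Slc45a3 and Tbc1d22b share exons with other annotated genes (Gm29103 on the same strand of the former, Gm28052, Tbc1d22bos and Tmem217 with the latter), and whether reads were counted by strand is not given in the sources used here. Zar1, Plat, Serpine2 and Coro2b were at or under 3 counts in 4 of 8 wild-type libraries and Smoc2 in 6, so the sizes of these rises rest on few wild-type counts.

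Oocyte genes were then read as lists. Of 11 zona pellucida and oocyte-secreted genes in the table, 10 passed the filter and all 10 were higher, against 23.6% of all tested genes, with a median log2 change of 2.46 against 0.21. Without H09 and C07 the count of rises was also 10. Zp2, a structural protein of the egg coat, was 31.2 to 105 CPM in wild type (median 47.7) and 145 to 738 CPM in maternal deletion (median 321). The groups did not overlap for Zp2, which changed by 2.68 (edgeR adjusted p = 1.11e-06), and overlapped for Zp1 (4.01) and Zp3 (2.21). Astl, the egg protease that cleaves the zona after fertilisation, ran from 0 to 14.5 CPM in wild type (median 3.55) and from 5.33 to 151 CPM in maternal deletion (median 63.2). Only H09 among the maternal deletion libraries fell within its wild-type range. Astl rose (edgeR adjusted p = 6.13e-05), but no wild-type library held more than 3 of its counts, so no fold is given. Fgf8, a growth factor of the oocyte, was at or under 3 counts in all 8 wild-type libraries and above 3 in all 13 maternal deletion libraries, where it reached 78.7 CPM. Bmp15, the partner of Gdf9, was already high in wild type (536 to 2188.3 CPM, median 1585.2) and rose by 0.72 to 1691.7 to 3471.8 CPM (median 2520.8, edgeR adjusted p = 0.0139). Gdf9 and Bmp15 therefore differed in size of change, 5.06 against 0.72, a difference that was not tested. Ovgp1 did not pass the filter.

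The subcortical maternal complex is a protein assembly under the egg membrane that cleavage requires. In its list with the Nlrp genes, 10 of 16 tested members rose, against 23.6% of all tested genes, none fell, and the median log2 change was 1.25. Ooep, a core subunit, was 0 to 38.8 CPM in wild type (median 6.12) and 14.4 to 218 CPM in maternal deletion (median 81.4), a change of 3.40 (SE 0.60, edgeR adjusted p = 6.75e-05). Nlrp5, also called Mater, changed by 2.22 (SE 0.38) and Tle6 by 1.73 (SE 0.46). The ranges of the groups overlapped for all 3. Without wild-type library H07 the count of rises was 6, where 1175 of all genes rose. Without H09 and C07 it was 10, where 1418 of all genes rose, against 1508 in the main fit. How many members were tested in these settings is not given here. The Nlrp4 and Nlrp9 members are close paralogs whose reads may be shared.

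Of 23 tested genes for storage and decay of maternal mRNA, 7 rose and 1 fell, against 23.6% and 20.2% of all tested genes, with a median log2 change of 0.18, near the 0.21 of all genes. Beside Zar1, the rises included Lsm14b, an RNA-binding protein of oocyte storage granules, which was 33.8 to 121 CPM in wild type (median 73.0) and 152 to 1360.5 CPM in maternal deletion (median 735). Its groups did not overlap, at 3.40 (SE 0.34, edgeR adjusted p = 2.53e-08). Mos, the kinase that holds the egg in meiotic arrest, rose (edgeR adjusted p = 0.000309), but 7 of 8 wild-type libraries held at most 3 of its counts, so no fold is given. Ythdf2, a reader of methylated RNA that promotes decay, was the fall, from 173 to 692 CPM (median 393) to 113 to 298 CPM (median 211), at -0.94 (SE 0.26, adjusted p = 0.00462). The count of falls moved with the setting, to 4 with total counts and to 5 without H09 and C07. Btg4 (0.60, edgeR adjusted p = 0.159), the adaptor that brings deadenylase to maternal mRNA, and Cnot6l (adjusted p = 0.990), a deadenylase subunit, were not called. Of 4 tested oocyte transcription factor genes, Nobox (2.51) and Zfp57 (1.84) rose and none fell, and without H09 and C07 there were 3 rises and 1 fall.

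The falls described next were picked for a high wild-type level, no overlap and a large change. Their low maternal deletion values follow in part from this choice. Of 84 falls with at least 200 CPM in wild type and no overlap, the 12 largest had log2 changes from -6.88 to -4.82. Stk17b (chr1:53755506-53785224), a protein kinase, was 43.4 to 392 CPM in wild type (median 196) and 0 to 11.3 CPM in maternal deletion (median 0). Zfp54 (chr17:21423227-21435640), a zinc finger gene, was 224 to 843 CPM in wild type (median 425) and 0 to 27.8 CPM in maternal deletion (median 0). Both were at or under 3 counts in most maternal deletion libraries (11 and 10 of 13), so their changes of -6.88 (SE 0.67, edgeR adjusted p = 2.25e-08) and -6.50 (SE 0.65, adjusted p = 3.01e-08) rest on few counts there.

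C1d (chr11:17257579-17269176), a cofactor of the nuclear RNA exosome, was the most abundant of the 12 in wild type, at 424 to 1341.1 CPM (median 647), and was 0 to 81.2 CPM in maternal deletion (median 16.1). Its change was -5.18 (SE 0.58, edgeR adjusted p = 1.56e-07), and H09 was its highest maternal deletion library. Chromatin and signalling genes among the 12 were Atf7ip2 (-5.33), a partner of a histone H3K9 methyltransferase, Usp22 (-5.03), the deubiquitinase of the SAGA complex, and Hipk1 (-4.98), a nuclear kinase. Pdxk, pyridoxal kinase, changed by -4.82, Timd2, a cell-surface receptor, by -4.91 and AF067063 by -4.96. Gm13078 changed by -6.50, Gm5612, annotated as a processed pseudogene, by -5.66, and Gm12823, an antisense transcript at Skint6, by -5.50. For Gm5612 and Gm12823, and for Zfp54, Hipk1 and Pdxk, which overlap exons of genes on the opposite strand, reads of other genes may be counted, since neither the strand setting nor the handling of reads with several matches is given in the sources used here. These levels are relative to the counts of each library, and there were no spike-in rows. A lower amount of these RNAs per embryo therefore cannot be told apart from a change in the other RNAs.

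Burst genes of the 2-cell stage fell as a list. Of 29 in the table, 19 passed the filter, 17 of them fell and none rose, against 20.2% of all tested genes that fell, and the median log2 change was -2.64. The counts were the same without H09 and C07. Sp110 (-3.39, edgeR adjusted p = 2.25e-08) was 256 to 640 CPM in wild type (median 496) and 4.60 to 91.9 CPM in maternal deletion (median 40.9). Gm8300 was 108 to 588 CPM in wild type (median 326) and 0 to 41.9 CPM in maternal deletion (median 9.98), a change of -4.54 (SE 0.57, adjusted p = 6.20e-07). Neither gene overlapped between the groups. Zfp352, a 2-cell zinc finger gene, was 103 to 594 CPM in wild type (median 315) and 0 to 201 CPM in maternal deletion (median 6.71). Its highest maternal deletion value, in well A09, was the only value of that group inside the wild-type range, and the change was -3.11 (SE 0.74, adjusted p = 0.00146).

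Among other members, Dppa2 (-2.01) and Dppa4 (-3.60), chromatin factors upstream of the burst, fell, as did Arg2 (-1.96), Tcstv3 (-3.05) and Tdpoz1 (-5.03). The members tested and not called were Tcstv1 (0.11, edgeR adjusted p = 0.839) and Zscan4d. Zscan4d was 4.83 to 299 CPM in wild type (median 109) and 0 to 502 CPM in maternal deletion (median 14.9). Well A09 held the highest Zscan4d value of either group although most maternal deletion libraries were low, and the change of -0.63 (SE 0.88) had an adjusted p of 0.583. Members of the Zscan4, Tdpoz and Tcstv families are near copies of each other, and how reads were divided among them is not stated.

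The mean of log2(CPM + 1) over the 29 burst genes was 4.98 to 6.04 in wild type and 0.94 to 4.70 in maternal deletion. The other 10 of the 13 maternal deletion libraries lay at or under 2.90, whereas wells A09 (4.70), H09 (4.54) and B09 (4.01) lay nearest to wild type. Smarca5 in these 3 libraries was 112, 302 and 86.3 CPM, and A08, with 174 CPM, had a burst level of 2.19. The 3 libraries had 2065152, 1931889 and 1292470 counts, 3 of the 4 highest totals of the group, and the part of depth in their position was not tested.

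**Figure D3:**
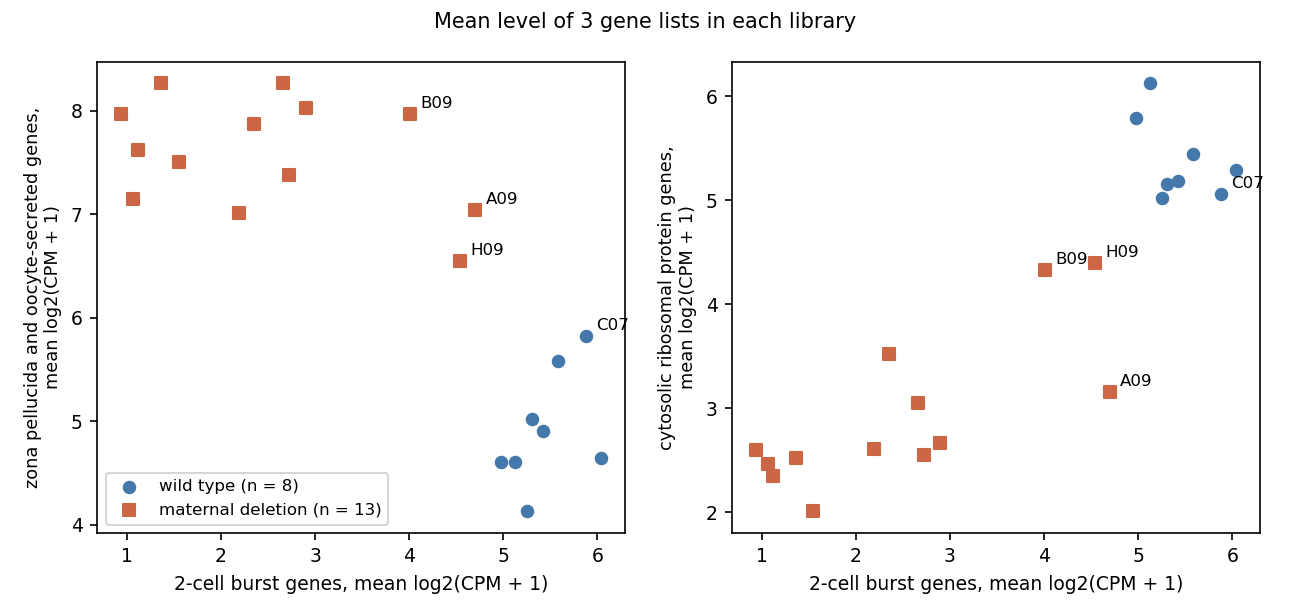
Mean log2(CPM + 1) of the 2-cell burst genes (horizontal axes) against that of the zona pellucida and oocyte-secreted genes (left) and of the cytosolic ribosomal protein genes (right), 1 point per library for 8 wild-type and 13 maternal deletion libraries. Maternal deletion wells A09, H09 and B09 lie nearest to wild type on the horizontal axis, at 4.70, 4.54 and 4.01, and no library of a group lies inside the other group's range on any of the 3 lists.

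Obox genes encode homeodomain factors, some stored in the egg and others switched on at the 2-cell stage. They split: Obox3 and Obox6 fell, Obox1 and Obox2 rose and Obox5 was not called (-0.14, edgeR adjusted p = 0.810). Obox3 (chr7:15479825-15639902) was 38.4 to 126 CPM in wild type (median 58.0) and 0 in all 13 maternal deletion libraries. Set against a floor of 3 counts over the whole maternal deletion group, or 0.274 CPM, its wild-type mean of 66.6 CPM was at least 243-fold higher. Obox6 (chr7:15833246-15839678) was 119 to 449 CPM in wild type (median 281) and 0 to 104 CPM in maternal deletion (median 6.65), with no overlap and a change of -3.97 (SE 0.65, adjusted p = 2.57e-05). Obox1 (1.49) and Obox2 (1.40) share exons, and their reads cannot be assigned to either with certainty. Both calls were lost without wild-type library H07.

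Of 10 other tested factors linked to genome activation, 2 were higher and 2 lower. This is near the 23.6% and 20.2% of all tested genes, so the counts are no result about this list. Nr5a2, a nuclear receptor active at this stage, was 7.68 to 112 CPM in wild type (median 36.2) and 0.717 to 26.6 CPM in maternal deletion (median 8.53), at -1.95 (SE 0.53, edgeR adjusted p = 0.00416). Zbtb17, or Miz1, the partner of Myc proteins, changed by -4.37 (SE 0.67) with no overlap. Gata3 (2.58, SE 0.57) and Max (1.08, SE 0.31) rose. Levels of Yap1 (-0.19), Klf17 (-0.30) and Pou5f1 (0.51) were not called.

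Genes for ribosomes and their assembly fell together. Among the 56 tested genes for cytosolic ribosomal proteins, 41 fell and none rose, against 20.2% lower and 23.6% higher over all tested genes. The median log2 change was -2.36. Without H09 and C07 the falls numbered 45, where 1611 of all 6501 genes then tested fell. Rps25 was 43.4 to 270 CPM in wild type (median 97.3) and 0 to 8.30 CPM in maternal deletion (median 1.71), with no overlap and a change of -5.04 (SE 0.53, edgeR adjusted p = 5.60e-08). Rpl19 and Rpl18 followed at -4.49 and -4.02, and in 16 of the 56 genes the groups did not overlap, against 4.32% of all tested genes. The mean level of the list was 5.02 to 6.13 in wild type and 2.01 to 4.40 in maternal deletion. Ribosomal protein genes have many processed pseudogenes, and reads shared with these may be missing or misplaced in either group.

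Of 33 nucleolar and rRNA processing genes tested, 22 fell and none rose, against 20.2% lower and 23.6% higher over all tested genes, with a median of -1.95. Polr1c, a subunit shared by RNA polymerases I and III, was 71.7 to 212 CPM in wild type (median 122) and 0 to 23.7 CPM in maternal deletion (median 0), a change of -5.03 (SE 0.70, edgeR adjusted p = 3.24e-06). Nop2, an rRNA methyltransferase, changed by -4.53 (SE 0.66) and Ubtf, the transcription factor of rRNA genes, by -3.24. These shares are also the background for the next lists. Of 25 tested translation initiation factors 10 fell and 1 rose, Eif2b4 (-3.01), Eif3c (-3.00) and Eif6 (-2.93) the most. Eif1 (0.75) was the rise, and it was not called without wild-type library H07. Spliceosome genes gave 11 falls and 1 rise of 27 tested, with Snrpa (-3.87), Snrpc (-3.30) and Srsf1 (-2.96) the furthest down and Snrpb2 (1.61) up. Chaperone genes gave 9 falls and 3 rises of 19, the falls led by subunits of the TRiC folding complex, Cct6a (-2.99), Cct4 (-2.15) and Cct3 (-2.07). Without wild-type library A07 no chaperone gene was called higher, where 1329 of all genes rose, against 1508 in the main fit.

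**Figure D4:**
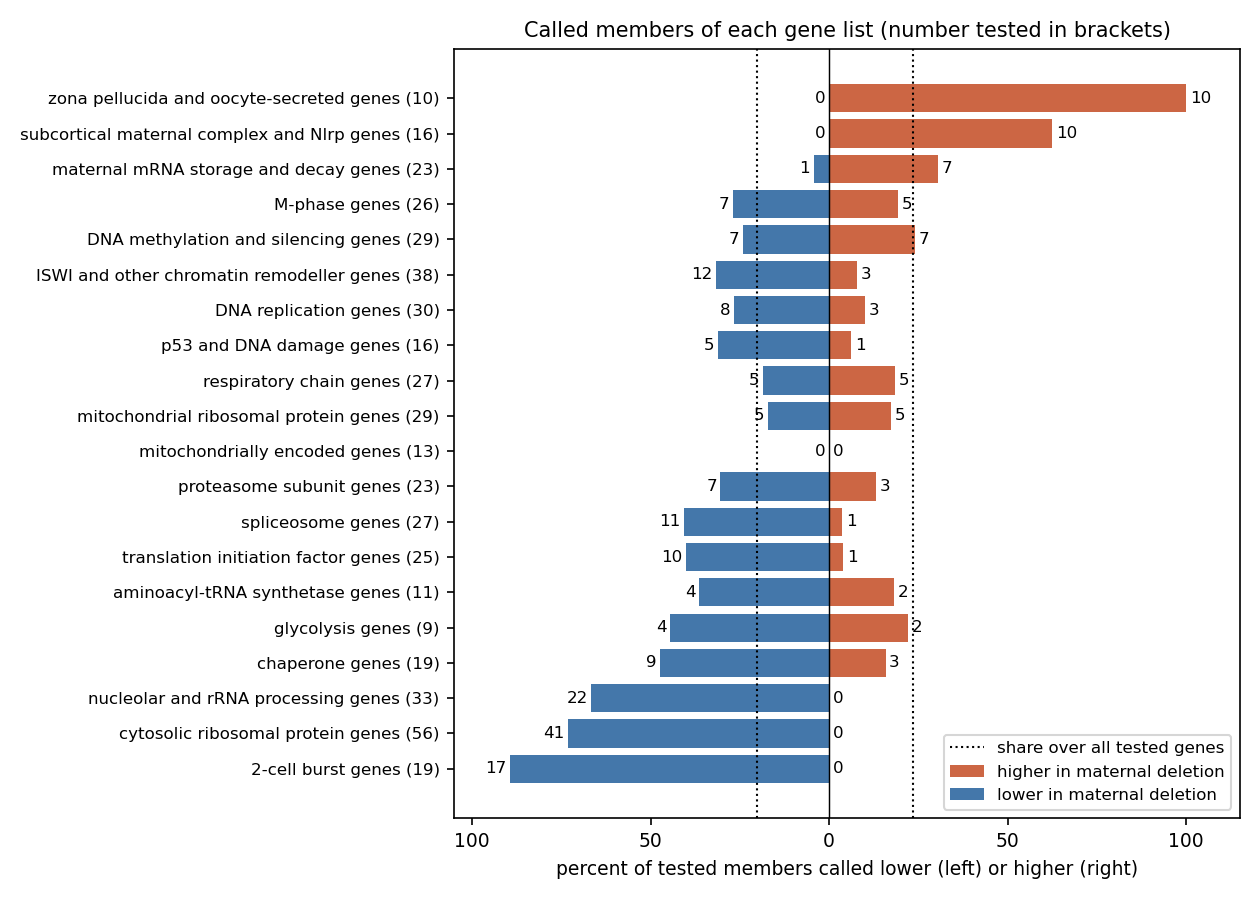
Percent of tested members of 20 gene lists called lower (left of 0) or higher (right of 0) in maternal deletion, with the number called at the end of each bar, the number tested in brackets and dotted lines at the shares over all 6389 tested genes (20.2% lower and 23.6% higher). All 10 zona pellucida and oocyte-secreted genes were higher, and 17 of 19 burst genes, 41 of 56 ribosomal and 22 of 33 nucleolar genes were lower.

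For mitochondria and energy metabolism the counts are set beside the 23.6% of all tested genes that rose and the 20.2% that fell. None of the 13 mitochondrially encoded genes was called, and their median log2 change was -0.07 (edgeR, with 0 of the 13 at an unadjusted p under 0.05 and 0 called by DESeq2 or voom). Nuclear genes of the respiratory chain gave 5 rises and 5 falls of 27 tested, near those shares. Ndufa4 was 69.1 to 247 CPM in wild type (median 120) and 176 to 1475.7 CPM in maternal deletion (median 827), at 2.45 (SE 0.35, edgeR adjusted p = 4.61e-06), whereas Uqcrfs1, a subunit of complex III, fell by 3.98. Mitochondrial ribosomal genes also gave 5 rises, such as Mrpl48 (1.82) and Mrpl9 (2.27), and 5 falls, such as Mrps6 (-2.64), of 29 tested, again near them. Proteasome genes gave 3 rises and 7 falls of 23. Psma7 was 0 to 3.81 CPM in wild type (median 0.916) and 9.98 to 95.5 CPM in maternal deletion (median 20.8), and rose with no overlap (edgeR adjusted p = 4.88e-05). Since 6 of 8 wild-type libraries held at most 3 Psma7 counts, no fold is given. Psmb1 changed by -2.59. In glycolysis and its transporters 2 of 9 rose, Ldhb (2.14) and Slc2a1 (1.71), and 4 fell, with Slc16a1 (-1.55) the furthest down. Of 11 aminoacyl-tRNA synthetase genes 2 rose and 4 fell. Without wild-type library B07 no synthetase was called higher, where 1209 of all genes rose, against 1508 in the main fit.

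Of 26 M-phase genes 5 rose and 7 fell, near the 23.6% and 20.2% of all tested genes, so the counts are no result about this list. Cdk1, the mitotic kinase, was 173 to 353 CPM in wild type (median 256) and 0 to 59.8 CPM in maternal deletion (median 10.7), with no overlap and a change of -4.03 (SE 0.57, edgeR adjusted p = 4.29e-06). Its regulators Cdc25c, an activating phosphatase, and Fbxo5, the APC/C inhibitor Emi1, changed by -3.49 and -3.15, also with no overlap. Mastl, the Greatwall kinase, rose by 1.13 (SE 0.30) and Wee2, the oocyte form of the Cdk1-inhibiting kinase, by 0.89. Without wild-type library G07 there was 1 rise, where 1222 of all genes rose, against 1508 in the main fit. Cyclin genes Ccnb1 (-0.41) and Ccna2 (-0.14) were not called. DNA replication genes gave 8 falls, with Orc1 (-2.76), Cdc45 (-2.31) and Mcm3 (-2.06) the largest, and 3 rises of 30 tested, against the same shares. Without wild-type library G07 the count of replication rises was 0, beside the same 1222 rises over all genes.

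Chromatin genes were read for the partners of SMARCA5 and for other silencing factors. Of 38 tested remodeller genes, Smarca5 included, 12 fell and 3 rose, against 20.2% and 23.6% of all tested genes, with a median of 0.01. Baz1a, the SMARCA5 partner in the ACF complex, was 86.6 to 315 CPM in wild type (median 257) and 23.0 to 178 CPM in maternal deletion (median 53.2), at -1.71 (edgeR adjusted p = 0.000508). Among partner genes of other SMARCA5 complexes, Baz1b (-0.38), Baz2a (0.64), Bptf (0.13) and Rsf1 (-1.11, edgeR adjusted p = 0.0924) were not called. Rbbp7 (1.45) and Pole3 (1.17), also members of this list, rose. Each of these calls was lost in 3 of 34 alternatives. Smarca4, the BAF ATPase BRG1, changed by -1.57, Smarcc1, a BAF core subunit, by -3.16 and Mta2, a NuRD subunit, by -4.16, while Smarca2, the alternative BAF ATPase, rose by 0.81. The Smarca2 call was lost in 29 of 34 alternatives. Of 29 DNA methylation and silencing genes, 7 rose and 7 fell, near the shares of all tested genes. Uhrf1, which brings Dnmt1 to replicated DNA and is stored in the egg, was 33.5 to 134 CPM in wild type (median 73.5) and 152 to 1808.5 CPM in maternal deletion (median 393), with no overlap and a change of 2.68 (SE 0.42, adjusted p = 1.38e-05). Dnmt3l (1.94) and Tet3 (1.40), both maternal products, also rose, and Kdm5b (-3.19), Cbx3 (-2.60) and Tet1 (-2.29) fell.

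Of 16 tested p53 and DNA damage genes 1 rose and 5 fell, against 23.6% and 20.2% of all tested genes. Mdm2, the p53 ubiquitin ligase, was 78.7 to 215 CPM in wild type (median 158) and 198 to 566 CPM in maternal deletion (median 324), at 1.28 (SE 0.25, edgeR adjusted p = 0.000180). Sesn2 (-3.93), a p53 target, fell, and Cdkn1a (-1.28, adjusted p = 0.0697), the p21 gene, and Trp53 itself (-0.06) were not called.

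Markers of other cells were read by list. Of 25 cumulus and granulosa cell markers, 14 never exceeded 3 counts in any library, 8 were at 0 in all 21, among them Amh, Inha and Areg, and the summed level was 11.2 to 89.8 CPM in wild type and 15.3 to 120 CPM in maternal deletion. Cyp19a1, aromatase, was at or under 3 counts in all wild-type libraries and 0 to 72.5 CPM in maternal deletion (median 12.9), with 4 of 13 at or under 3 counts. It did not pass the filter. Kitl was tested and not called (0.97, edgeR adjusted p = 0.337). Amhr2, not tested, reached 83.1 CPM in wild type. On the scale of the fit over both collections below, Amhr2 was 0 to 79.5 CPM in wild type and 0 to 3.27 CPM in maternal deletion. That fit called Cyp19a1 higher and Amhr2 lower in the first collection (edgeR adjusted p = 0.0225 and 0.000881). Each was near 0 in 1 of the groups, so no fold is given. For sperm markers the summed level was 37.6 to 209 and 72.3 to 241 CPM, with a mean of 106 and 147 CPM from Odf2 (0.48, edgeR adjusted p = 0.227). Of 26 later lineage and developmental genes 2 were tested, with Pax6 (1.66, edgeR adjusted p = 0.0499) higher and Gata4 (-1.20, adjusted p = 0.0331) lower. Pax6 lost its call in 23 of 31 alternatives and Gata4 in 5 of 33. Fgf4 was 0 to 33.8 CPM in wild type (median 9.58) and at 0 in every maternal deletion library. Whether RNA from other cells has a part in the rises was not tested.

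Promoters were searched for the letters bound by factors of genome activation, in RefSeq promoter windows of 300 bases (250 before to 50 after each start, GRCm38.p6), on both strands. Genes may have several windows and counted if any held the match. GGATTA, the core letters of OBOX-type homeodomain sites, was in 92 of 902 genes that fell at least 2-fold (10.2%), in 53 of 978 that rose at least 2-fold (5.42%), in 6.71% of 4647 tested genes and in 8.14% of 27025 genes in the RefSeq table. AAGGTCA, bound by NR5A2, was in 3.44% of falls and 3.58% of rises, against 3.36% of tested genes. CCAAT, bound by NFY, was in 48.8% and 44.4% against 45.6%, the E-box CACGTG in 13.9% and 12.8% against 12.4%, and TAATTG, bound by NOBOX, in 4.88% and 6.44% against 6.39%. These shares are descriptions with no test, and a match is not a bound site.

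Among the 84 candidate falls above, 51 had a promoter window and 6 held GGATTA, and among the 89 candidate rises 68 had one and 3 held it. Of the 12 largest falls 7 had a window and 1, Zfp54, held GGATTA. Of the 12 largest rises 7 had one and 0 held it. The windows of Zfp54 and Sp110, falls that hold GGATTA, are shown with that of Zar1, the largest of the 12 rises, which does not; they were chosen after the values were seen. GGATTA is in capitals, and each sequence is printed from 5′ to 3′ on the strand of its gene.
Zfp54 (chr17:21422977-21423276, plus strand): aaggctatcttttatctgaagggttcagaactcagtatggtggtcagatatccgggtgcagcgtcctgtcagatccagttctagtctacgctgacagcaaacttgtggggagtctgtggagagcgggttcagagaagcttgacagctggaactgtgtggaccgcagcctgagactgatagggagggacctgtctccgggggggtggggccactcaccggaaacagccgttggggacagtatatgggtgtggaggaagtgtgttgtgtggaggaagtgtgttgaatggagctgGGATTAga
Sp110 (chr1:85603842-85604141, minus strand): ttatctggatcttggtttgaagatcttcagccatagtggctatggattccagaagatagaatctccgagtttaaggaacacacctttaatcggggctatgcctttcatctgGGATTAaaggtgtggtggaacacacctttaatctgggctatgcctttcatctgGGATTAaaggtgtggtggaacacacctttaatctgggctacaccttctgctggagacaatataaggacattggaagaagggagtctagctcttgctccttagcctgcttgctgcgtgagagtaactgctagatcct
Zar1 (chr5:72581035-72581334, minus strand): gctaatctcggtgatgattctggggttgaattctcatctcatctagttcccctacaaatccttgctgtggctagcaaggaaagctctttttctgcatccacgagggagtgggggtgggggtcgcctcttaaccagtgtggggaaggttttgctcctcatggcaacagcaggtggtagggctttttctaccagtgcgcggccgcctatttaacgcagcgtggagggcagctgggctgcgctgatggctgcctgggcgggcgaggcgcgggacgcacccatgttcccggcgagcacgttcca
In the windows shown, the match begins 42 bases after the start site in Zfp54, and 139 and 86 bases before it in Sp110. Both Sp110 matches stand in a repeated stretch of letters. Other windows of Zfp54 place the same match at 25 and -226 from their start sites. Another window of Sp110 holds the reverse complement, TAATCC, at -165. Sp110 fell by 3.39 on the log2 scale in the values above, and Zfp54 by 6.50.

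The second collection of the same groups (15 maternal deletion and 14 wild-type libraries of at least 100000 counts) was used to see where the first differs. In a fit over all 50 libraries, 2801 of the genes called above could be compared, and 93.5% of them had the same sign in the second collection. The difference of the effect between collections was tested for 11352 genes and passed for 123 (1.08%), of which 108 had a more negative effect in the first collection, and limma-voom called 4 (1765 at an unadjusted p under 0.05, against 1769 in edgeR). In earlier results of these data, 1 second-collection library labelled maternal deletion (A04) went against its label, and 2 labelled wild type (G05 and H05) had high Gdf9 and low Smarca5. These 3 were picked by their levels of the 2 marker genes, so values without them, Gdf9 above all, are descriptions that this choice favours. Without them the difference passed for 1263 of 10826 genes (11.7%), 1050 of them more negative in the first collection, and 112 of the 123 were among these. The same-sign share was then 92.7%.

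Over 26 burst genes of the 2-cell stage the median log2 change was -2.37 in the first collection and 0.35 in the second, and the difference passed for none. Without the 3 libraries the medians were -2.35 and 0.99, against 0.25 and 0.44 over all genes tested, and the difference passed for 10 of the 26, each more negative in the first, against 11.7% of all genes. These calls depend on leaving out the 3 libraries. In that fit Gm8300 changed by -4.49 and 1.31, Tdpoz3 by -3.22 and 7.09 and Arg2 by -1.88 and 1.08 (edgeR adjusted p of the difference 0.00267, 0.000397 and 0.00823). Other members fell in both, such as Dppa4 (-3.53 and -3.44), Sp110 (-3.30 and -2.12) and Pramel7 (-2.96 and -3.75), with no call for the difference. With all libraries on a common scale, the wild-type median of Gm8300 was 334 CPM in the first collection and 20.1 CPM in the second. Its maternal deletion medians were 10.7 and 11.9 CPM. For Gm5662 the wild-type medians were 228 and 5.84 CPM and the maternal deletion medians 2.23 and 4.51 CPM. In Gm8300 and Gm5662 the wild-type medians thus differed more between collections than the maternal deletion medians, and the cause was not tested.

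Among zona pellucida and oocyte-secreted genes the median change was 2.39 in the first collection and 3.78 in the second, and the difference passed for 0 of 11. Without the 3 libraries the medians were 2.41 and 4.38, against 0.25 and 0.44 over all genes tested. The difference then passed for 5 of 11, all smaller in the first, against 11.7% of all genes. Gdf9, by which the libraries were picked, was 1 of the 5. With all libraries Gdf9 changed by 5.10 and 6.31 (edgeR adjusted p of the difference 0.534). Cytosolic ribosomal genes had medians of -2.32 and -1.78, and the difference passed for 0 of 78. Without the 3 libraries their medians were -2.32 and -2.30 and it passed for 3 of 78, against 11.7% of all genes. With all libraries Smarca5 changed by -2.14 and -1.99, with an adjusted p of 0.937 for the difference. Each collection had a sequencing lane of its own, and the effects of lane and collection cannot be told apart.

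**Figure D5:**
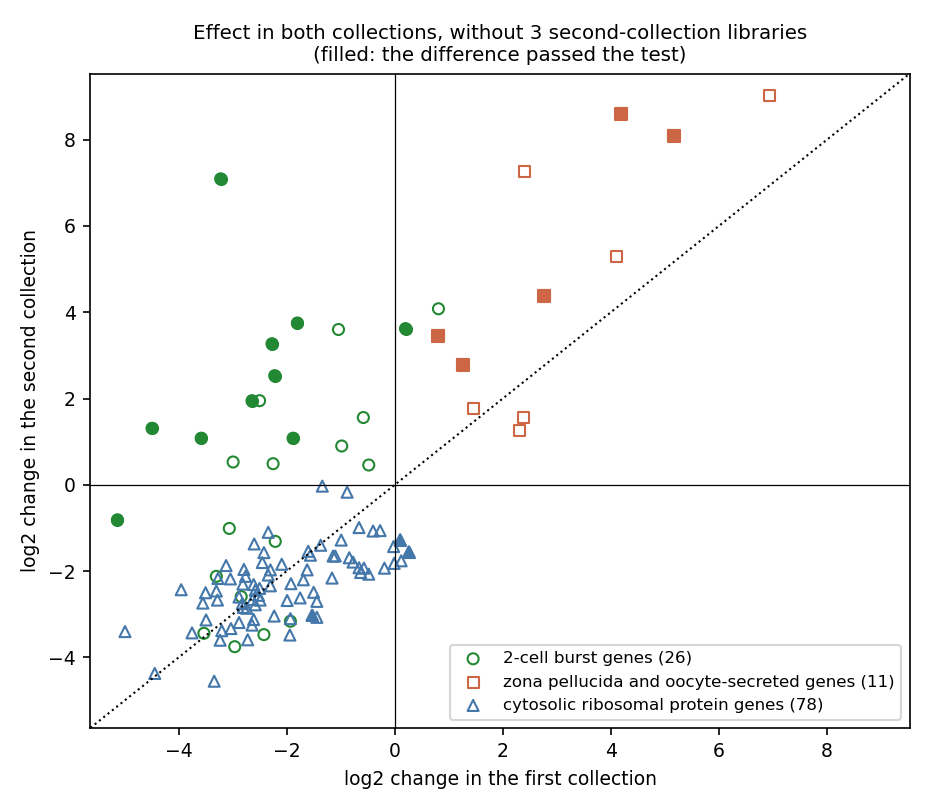
Log2 change of maternal deletion against wild type in the first (horizontal axis) and second collection (vertical axis) for the members of 3 gene lists, without 3 second-collection libraries, 1 point per gene, filled where the difference passed an edgeR adjusted p under 0.05 and with a dotted line of equal change. Ribosomal genes lie on both sides of the line, with medians of -2.32 and -2.30. Filled are 10 of 26 burst genes and 5 of 11 zona and oocyte-secreted genes, against 11.7% of all genes in this fit. With all libraries none of the 3 lists has a called gene.

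By size of evidence, the genes whose effect was more positive in the first collection were led by Jkamp, Psma7, Psmb2, Yy2 and Pcgf1. Jkamp, a stress kinase adaptor, was 0 to 7.05 CPM in wild type and 9.15 to 55.5 CPM in maternal deletion of the first collection, and 1.44 to 145 CPM and 4.57 to 112 CPM in the second, on a common scale. The wild-type embryos of the first collection were thus the low ones. Yy2 and Pcgf1, a Polycomb subunit gene, were not called in the first collection and changed by -2.40 and -1.99 in the second. On the other side stood Tpd52, Gal, Rrm2b, Hoxd8 and Arhgap9. Tpd52 (0.37 in the first collection, 2.97 in the second) and Rrm2b (-0.68 and 1.60), a p53-regulated ribonucleotide reductase subunit, were well expressed in all 4 groups.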

How the data were processed

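Polyadenylated RNA of single 2-cell mouse embryos was sequenced after Nextera XT preparation, per the labels' protocols. The authors deposited raw read counts per gene, not normalised. Reads were trimmed with Trim Galore 0.6.5 and cutadapt 2.3 and aligned to GRCm38 with HISAT2 2.1.0, per the submitters' processing notes. The counting tool, annotation release, strand and handling of reads with several matches are not given in the sources used here. Odd counts outnumber even ones in the deposited table (33498 cells hold a count of 1, 6822 a 2, 19388 a 3 and 4933 a 4), so a count of this table need not be 1 independent read.

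The 25965 lines were summed by gene identifier to 25900 genes, 57 of which had several lines. There were no spike-in rows. Libraries were matched to samples by well and kept at 100000 counts or more. Counts were tested with edgeR 4.0.16 (quasi-likelihood, filterByExpr, TMM, robust) in R 4.3.3 with Benjamini-Hochberg adjustment at 0.05, and group by collection in the same way over both collections. SE is the log2 change over the square root of F. The alternatives used DESeq2 1.42.0, limma 3.58.1, other filters and scalings, thinning, plate columns and leaving out libraries. The script was tested on simulated data. Of 106 library pairs within groups, 0 were identical, and the lowest chi-square per degree of freedom was 4.73 over genes with at least 20 counts, so each library was counted once.

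Members and lists were chosen with earlier results of these data known. The genes named were Smarca5 and Gdf9, the 12 largest rises and 12 largest falls with a mean of at least 200 CPM in the higher group and no overlap, the 3 largest called changes each way in each list, 5 each way for the difference between collections and other-cell markers with a mean of at least 10 CPM. Not every gene picked by this rule is described above. Other genes named were chosen after their values were seen. A gene that this rule names is not reported here. Promoters come from RefSeq.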

Additional observations from a re-analysis of the deposited data

Results flagged for a closer look

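In 34 measures of the 8 wild-type libraries, 1 library stood apart from the rest in 3, where chance gives about 1 in 20. In log2(CPM + 1), Lamtor3 was 0 in H07 and 2.66 in the next lowest library, a gap of 0.58 of the range. Stk17b was 5.47 in D07 and 7.14 in the next (0.531 of the range), and Usp22 was 5.32 in C07 and 7.25 in the next (0.613 of the range).

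The effect of maternal deletion differed between the collections (first minus second, log2, edgeR adjusted p under 0.05) in 15 genes named here. It was more positive in the first collection for Jkamp (4.96, from 4.30 and -0.65), Psma7 (4.02, from 3.84 and -0.18), Psmb2 (2.30, from 1.41 and -0.90), Yy2 (2.78, from 0.37 and -2.40), Pcgf1 (2.71, from 0.72 and -1.99) and Mrpl9 (2.66, from 2.30 and -0.36). It was more negative for Tpd52 (-2.61, from 0.37 and 2.97), Rrm2b (-2.28, from -0.68 and 1.60), Iars (-1.86, from -1.67 and 0.18), Smarca2 (-2.12, from 0.84 and 2.96) and Gm13078 (-6.73, from -6.62 and 0.11). Fitted differences for Gal (-9.23), Hoxd8 (-8.23) and Arhgap9 (-8.61) set levels against second-collection wild-type libraries that were all at 0, and that for Obox3 (-7.77) against first-collection maternal deletion libraries that were all at 0. These 4 sizes depend on the prior count and are not bounds. The size for Psma7 rests on first-collection wild-type libraries of which 6 of 8 held at most 3 counts. That for Jkamp rests on first-collection wild-type libraries with a median of 0 CPM. For Gm13078 the maternal deletion median was 0 CPM in both collections, and 11 of 13 first-collection libraries of that group held at most 3 counts. Its second-collection maternal deletion libraries reached 375 CPM. Limma-voom called 4 genes over the whole table for this difference.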

How the results depend on the processing

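Of 2801 calls (1508 higher, 1293 lower), there were 4624 with no filter on low counts (2468 lower), 1175 after thinning to the lowest total (584 and 591), 1341 when a 2-fold change was the null (618 and 723), and 896 rises with the maternal deletion libraries of plate column 9 alone. Leaving out 1 library at a time gave 2535 to 3027 calls, 1175 to 1507 higher and 1206 to 1570 lower. The share of calls that were rises was 53.8% in the report and 45.1% to 49.7% in the other 13 settings. The difference between collections passed for 123 genes, for 1263 without 3 second-collection libraries and for 4 with limma-voom. The cause of these moves was not tested. Smarca5 stayed lower and called in all 34 alternatives (-2.80 to -2.05). Of 126 called genes picked by the naming rule, not all of them described above, 83 stayed called in every alternative that tested them. After thinning, 5 burst genes, 6 ribosomal genes, 6 nucleolar genes and 6 zona and oocyte-secreted genes were called. Over all genes 584 rose and 591 fell of the 2624 then tested. How many members of each list were still tested is not given here, so these counts are no result about the lists. No paired analysis was possible because both groups of this collection carry the same single replicate number. Depth limits genes at or under 3 counts, and plate column cannot be told apart from group.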
